A study of Mus musculus with 8 samples.

Results

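Endogenous opioid peptides are cut from large precursor proteins, act on receptors that couple to inhibitory G proteins, and are destroyed outside the cell by peptidases anchored in the plasma membrane. In the gut wall, enkephalins are made by enteric neurons and by CD4+ T lymphocytes, and opioid receptors on neurons restrain transmitter release, secretion and the firing of sensory afferents. The genes examined here were the 4 opioid precursor genes (*Penk*, *Pdyn*, *Pomc* and *Pnoc*), the 4 genes of the opioid receptor family (*Oprm1*, *Oprd1*, *Oprk1* and *Oprl1*), and 2 genes of enkephalin-degrading enzymes (*Mme* and *Anpep*). The 10 genes were taken as a list of names. Of them, 8 are among the 26008 genes analysed, and *Pnoc* and *Oprm1* are not analysed here.

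The libraries came from colonic biopsies of male C57BL/6JRj mice that had been lethally irradiated at 7 weeks of age. The mice were then engrafted with bone marrow of either *penk*-/- or wild-type (*penk*+/+) male donors aged 9 to 11 weeks, and were examined from 18 weeks after engraftment. Each group counted 4 mice, with 1 library per mouse. The *penk*-/- donors were B6.129-Penk-rstm1Pig/J mice, a strain whose *Penk* gene carries a neomycin cassette. The knockout therefore concerned bone marrow-derived cells, whereas epithelium, muscle and enteric neurons of both groups belonged to the wild-type recipients. The paper traces most, but not all, marrow cells of its chimeras to the donors, as quantified in a set of mice other than the sequenced one. It also reports that *penk* mRNA was reduced, not absent, in CD4+ T lymphocytes sorted from the spleen of *penk*-/- chimeras. The values are normalized counts, that is, reads of a gene after scaling each library by its size factor. As these values were whole multiples of a step in each library, the reads behind them are also given. Summed over the genes analysed, the recovered reads ran from 33122556 to 50677005 per library.

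Markers of epithelium, smooth muscle, fibroblasts, enteric neurons and hematopoietic cells were read in all 8 libraries. *Epcam* ranged from 48569 to 70453 normalized counts and *Ptprc*, which codes for CD45, from 510 to 1297. The libraries of *penk*-/- mouse 3 and *penk*+/+ mouse 4 stood apart by *Pbsn*, which codes for probasin, a secreted protein of the prostate, with 105658 and 111024 normalized counts against 0 to 13425 in the other 6. All 4 genes of the accessory gland list (*Pbsn*, *Tgm4*, *Msmb* and *Azgp1*) were highest in these libraries. Results that rest on them are given with and without them.

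The precursors differ in how many enkephalin units they carry. In the coding sequence of the canonical transcripts (GRCm39, GENCODE M39), the enkephalin core of 5 codons occurred 7 times in *Penk*, 3 times in *Pdyn* and 1 time in *Pomc*. In *Penk* it coded the Met-enkephalin sequence 6 times and that of Leu-enkephalin 1 time. It coded only Leu-enkephalin in *Pdyn*, and in *Pomc* the Met-enkephalin that opens beta-endorphin. The copies are printed to compare the enkephalins of *Penk*, the gene disrupted in the donors, with those of the other precursors. Each is given 5′ to 3′ on the coding strand, with the 15 bases of the core in capitals and 6 flanking bases on either side.
*Penk* copy 1 (chr4:4134328-4134354): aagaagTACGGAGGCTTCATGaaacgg
*Penk* copy 2 (chr4:4134307-4134333): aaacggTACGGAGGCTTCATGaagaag
*Penk* copy 3 (chr4:4134220-4134246): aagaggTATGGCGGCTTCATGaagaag
*Penk* copy 4 (chr4:4134067-4134093): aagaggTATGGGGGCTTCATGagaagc
*Penk* copy 5 (chr4:4133995-4134021): aagcgcTACGGGGGCTTCATGagaagg
*Penk* copy 6 (chr4:4133935-4133961): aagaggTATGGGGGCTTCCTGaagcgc
*Penk* copy 7 (chr4:4133842-4133868): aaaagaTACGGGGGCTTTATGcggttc
*Pdyn* copy 1 (chr2:129530152-129530178): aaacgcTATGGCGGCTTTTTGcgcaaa
*Pdyn* copy 2 (chr2:129530044-129530070): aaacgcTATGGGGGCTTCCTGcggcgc
*Pdyn* copy 3 (chr2:129529987-129530013): aagcgcTATGGTGGTTTCCTGcggcgt
*Pomc* copy 1 (chr12:4010367-4010393): aagcgtTACGGTGGCTTCATGacctcc

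*Penk* and *Pdyn* lie on the minus strand and *Pomc* on the plus strand, and every copy lay in the last exon of its gene. The flanks of the first and second *Penk* copies share bases. A pair of codons for basic residues, the signal at which prohormone convertases cut, preceded 11 of the 11 copies and followed 8 of them. The copies without such a pair after the core were *Penk* copy 4, *Penk* copy 7 and *Pomc* copy 1. The 11 copies used 9 different 15-base sequences, so that the peptide varied less than its codons. *Penk* copy 6 and *Pdyn* copy 2, which both code Leu-enkephalin, had the same 15 bases.

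All 8 genes were read in every library, but at very unequal levels. Levels of different genes were compared as mean normalized count per kilobase of annotated exon, and a percentile is the rank of that value among the 25776 genes with a known length. *Anpep* stood at 172 per kilobase (percentile 73.0) and *Penk* at 153 (percentile 71.1), both above the median of 38.1 for these genes. *Mme* followed at 82.5, and at 24.1, below that median, when the 2 libraries with the most *Pbsn* were left out. The receptors lay lower, at 11.5 for *Oprd1*, 6.65 for *Oprl1* and 6.37 for *Oprk1*. *Pdyn* stood at 4.28 and *Pomc* at 2.87 (percentile 16.9). The ranges over the 8 libraries overlapped for each pair of neighbours in this order. *Anpep* was above *Penk* in 6 of 8 libraries, and *Oprl1* above *Oprk1* in 4 of 8. *Oprd1* was above *Oprl1* in 8 of 8 libraries, and its range (8.20 to 18.4 per kilobase) lay wholly above that of *Oprk1* (4.74 to 7.24). The order of *Oprd1* and *Oprk1* depends on the lengths used (4066 and 9194 bases), which join the exons of all annotated transcripts. Without division by length, the mean normalized count was 46.7 for *Oprd1* and 58.5 for *Oprk1*. Other orders changed as well. *Mme* (11858 bases) then had a mean of 978, above *Anpep* (713) and *Penk* (535), with a median of 288 outside the 2 libraries with the most *Pbsn*. *Oprl1*, at 35.1, then lay below *Oprk1*.

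**Figure D1:**
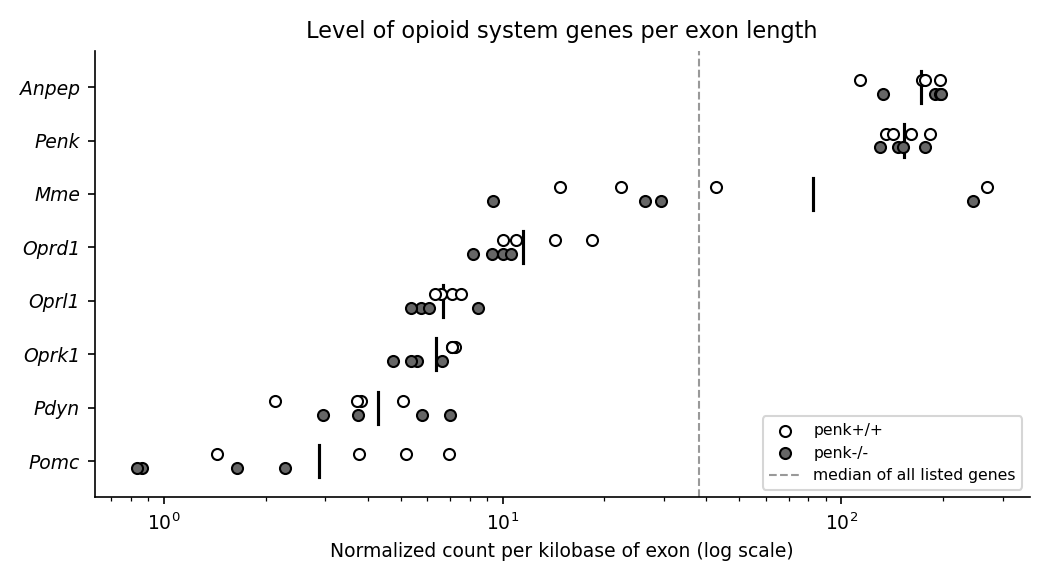
Normalized count per kilobase of exon on a log scale for the 8 opioid system genes. Each circle is 1 library (white, penk+/+; grey, penk-/-), the bar is the mean of the 8 libraries, and the dashed line is the median of all genes with a length (38.1). *Anpep* and *Penk* lie above it in every library, the receptors and the other precursors below it, and *Mme* spreads over both sides.

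*Penk* (chromosome 4, 4132722 to 4141856, minus strand), the gene disrupted in the grafted cells, differed between groups by less than the spread between mice. It had 453, 512, 616 and 531 normalized counts in *penk*-/- mice 1 to 4, and 473, 496, 560 and 636 in *penk*+/+ mice 1 to 4. The groups overlapped over most of their range, and the highest library of each group was the one with the most *Pbsn*. The log2 fold change (*penk*-/- minus *penk*+/+, on log2(normalized count + 1)) was -0.03 with a standard error of 0.12 and an adjusted *p* of 0.957 by limma. The 95% interval of the ratio between groups ran from 0.807 to 1.18. A ratio below 0.807 thus lay outside this interval. Without the 2 libraries with the most *Pbsn*, the means were 499 ± 40.6 and 510 ± 45.1 (SD, *n* = 3 each). In bulk tissue, fewer cells of a type and less RNA per cell cannot be told apart, nor can reads of grafted cells be told from those of the recipient.

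Markers of the cells that can make enkephalins were read in both groups. The summed level of the 7 T cell markers ranged from 200 to 310 normalized counts in the *penk*-/- and from 208 to 416 in *penk*+/+ mice, with *Cd3e*, a chain of the T cell receptor complex, between 6.06 and 32.7. The 11 enteric neuron markers summed to between 5131 and 7550 in the *penk*-/- and between 5686 and 6987 in *penk*+/+ mice. None of the T cell or neuron markers was at 0 in any library. Over the 8 libraries, *Penk* had a Pearson r of 0.66 with the enteric neuron score (exact permutation *p* = 0.0735; Spearman rho 0.60, exact permutation *p* = 0.132). Its r with the T cell score was 0.49 (exact permutation *p* = 0.218; rho 0.57, exact permutation *p* = 0.151). Without the 2 libraries farthest from the median of the score these r were 0.63 and 0.81, and without the 2 libraries with the most *Pbsn* they were 0.43 and 0.38. Its r of greatest size was with the enteroendocrine score, at -0.75 (exact permutation *p* = 0.0247; Spearman rho -0.81, exact permutation *p* = 0.0218), and became -0.49 and -0.64 under these omissions. None of these 3 relations passed adjustment over the 84 relations computed between 7 genes and 12 marker lists (adjusted *p* of r 0.562, 0.792 and 0.259). Without the 2 libraries with the most *Pbsn*, the largest r of *Penk* was 0.86, with the smooth muscle score, followed by 0.85 with the enteric glia score. Over all 8 libraries these r were 0.40 and 0.58 (adjusted exact permutation *p* 0.792 and 0.695). A score is the mean of the centred log2 values of the genes in a list.

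The other precursors were close to the limit of reading. *Pdyn* (chromosome 2, 129528469 to 129541945), which codes for the dynorphins that act on the kappa receptor, had 30.3, 36.6, 19.6 and 15.5 normalized counts in the *penk*-/- and 19.9, 26.6, 19.4 and 11.1 in *penk*+/+ mice 1 to 4. The groups overlapped. For *Pdyn* limma gave a log2 fold change of 0.37 (adjusted *p* = 0.777), with an interval from -0.40 to 1.14.

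*Pomc* (chromosome 12, 4004944 to 4010642), the precursor of beta-endorphin, was represented by 8 reads over the 4 *penk*-/- libraries and by 23 over the 4 *penk*+/+ libraries. Its normalized counts were 3.0, 1.1, 2.2 and 1.1 in the *penk*-/- and 5.0, 1.9, 9.2 and 6.9 in *penk*+/+ mice 1 to 4. Only *penk*+/+ mouse 2 lay within the *penk*-/- range. The gene fell under the filter of a mean of 10 and was not tested with limma. The difference of the mean log2 values was -1.15 (exact permutation test, two-sided, *p* = 0.0857, and 0.652 after Benjamini-Hochberg adjustment over all genes listed), with 4 mice against 4 allowing no *p* below 0.0286.

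Among the receptors, the kappa receptor gene *Oprk1* (chromosome 1, 5658667 to 5676375) was the one whose groups did not overlap. It had 51.5, 49.2, 43.6 and 60.8 normalized counts in the *penk*-/- and 66.0, 66.6, 65.4 and 65.2 in *penk*+/+ mice 1 to 4. Each *penk*-/- library was thus under every *penk*+/+ library (two-sided exact permutation *p* = 0.0286, which is the lowest that 4 mice against 4 allow). The means were 51.3 ± 7.14 and 65.8 ± 0.620 (SD, *n* = 4 each). By limma the log2 fold change of *Oprk1* was -0.36 ± 0.15 (SE), with an adjusted *p* of 0.498, so that the difference did not pass the test across all genes.

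Of the 7 members tested with limma, 0 had an adjusted *p* below 0.05, as for 0% of all 19127 genes tested. The count of members with an unadjusted *p* below 0.05 was 1, beside 9.63% of all genes (5.33% lower and 4.3% higher in *penk*-/- mice). The count of members whose groups did not overlap was also 1, beside 5.63% of all genes (2.74% lower and 2.89% higher in *penk*-/- mice). In both counts the gene was *Oprk1*, with the lower values in *penk*-/- mice. DESeq2 on the reads recovered from the table called 205 genes at an adjusted *p* below 0.05, or 1.25% of those to which it gave one. None of the 7 members was among them, although DESeq2 gave no adjusted *p* for *Pdyn* and *Mme*. With edgeR the count over all genes was 0, as with limma.

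The 43 to 76 reads of *Oprk1* in a library carry a counting error of 5.63 to 9.06 normalized counts, more than the SD of the *penk*+/+ libraries. *Oprk1* followed the epithelium score with a Pearson r of 0.77 (exact permutation *p* = 0.0200; Spearman rho 0.64, exact permutation *p* = 0.0962; adjusted *p* of r 0.240), and r was -0.07 without the 2 libraries farthest from the median of the score. Those libraries were *penk*-/- mice 2 and 3. Without the 2 libraries with the most *Pbsn*, r was 0.49. The relation thus depended on which libraries were kept. The 6 epithelial markers summed to between 326841 and 444853 normalized counts in the *penk*-/- and between 410636 and 478523 in *penk*+/+ mice, and their part in the difference of *Oprk1* was not tested. When the 2 libraries with the most *Pbsn* were left out, *Oprk1* had a log2 fold change of -0.29 and an adjusted *p* of 0.686 by limma, and its unadjusted *p* was no longer below 0.05. The unadjusted *p* was also not below 0.05 when any 1 library other than *penk*-/- mouse 4 was left out.

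*Oprd1* (chromosome 4, 131838037 to 131871842), the delta receptor gene whose product binds enkephalins, had 33.3, 37.8, 40.7 and 43.1 normalized counts in the *penk*-/- and 74.7, 40.9, 58.3 and 44.6 in *penk*+/+ mice 1 to 4. A pair of *penk*+/+ mice, 1 and 3, lay above all others, and *penk*+/+ mouse 2 lay within the *penk*-/- range. Its log2 fold change was -0.45 with an interval from -0.94 to 0.04 (adjusted *p* = 0.552 by limma). *Oprl1* (chromosome 2, 181356605 to 181363728), coding for the nociceptin receptor, had 30.3, 44.6, 28.3 and 32.0 in the *penk*-/- and 37.3, 39.9, 34.8 and 33.4 in *penk*+/+ mice 1 to 4. These groups overlapped, and limma gave -0.12 as the log2 fold change (SE 0.20, adjusted *p* = 0.889). The 3 receptor genes tested had a median log2 fold change of -0.36, which is the value of *Oprk1* itself, against 0.01 for all genes tested. All 3 were below 0, as were 48.9% of all genes, and their adjusted *p* by limma was at least 0.498.

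**Figure D2:**
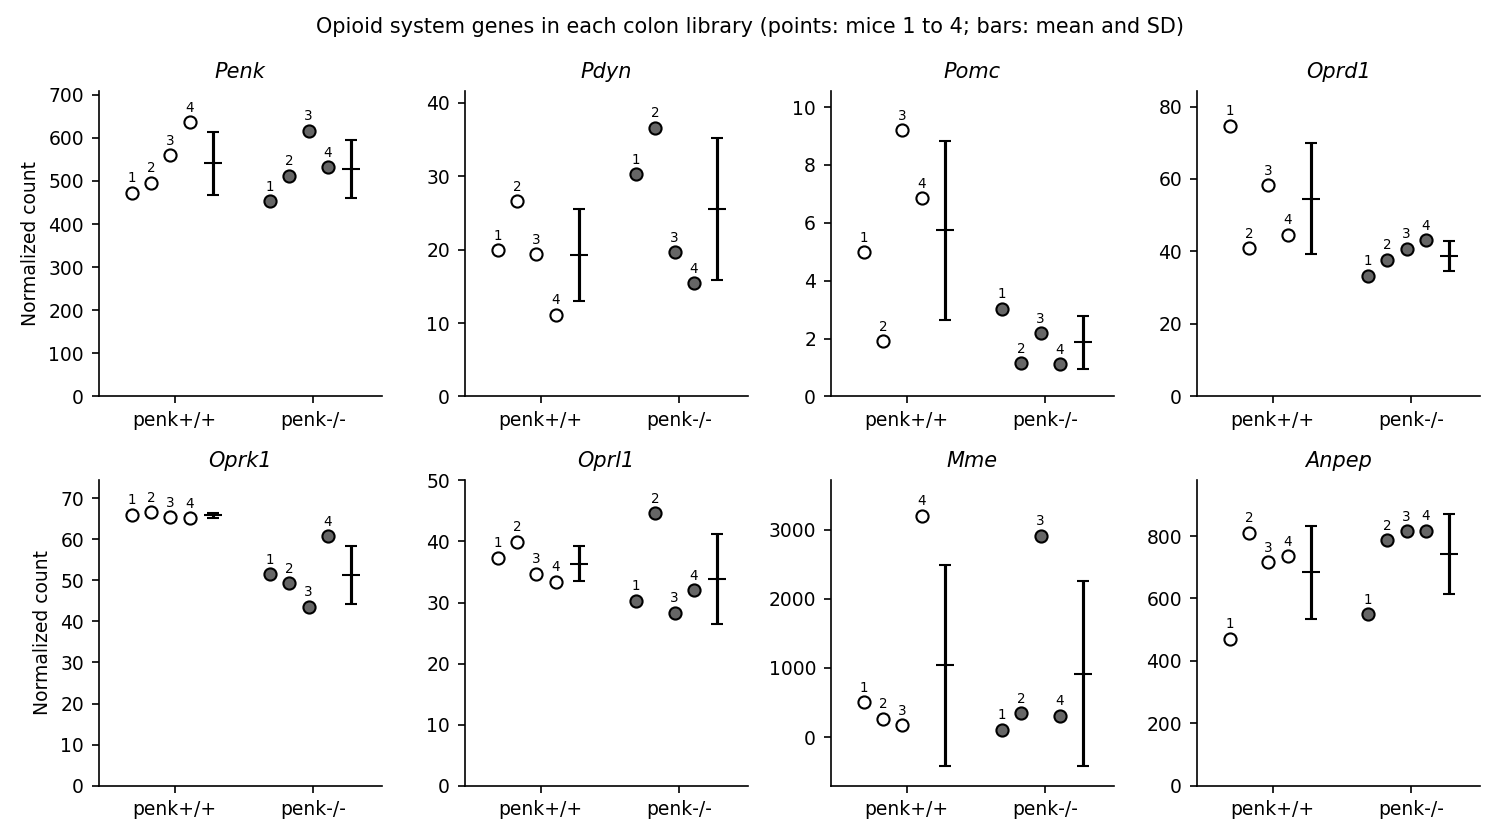
Normalized counts of the 8 genes in each library, with a linear axis per gene. Circles are mice 1 to 4 of each group (white, penk+/+; grey, penk-/-), and the bars beside them are the mean and SD. *Oprk1* is the gene whose groups do not overlap (43.6 to 60.8 against 65.2 to 66.6), and *Mme* has 1 library far above the rest in each group.

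*Mme* (chromosome 3, 63148889 to 63293451) codes for neprilysin, the membrane metallopeptidase that cuts enkephalins within the peptide. It was the most variable member. It had 111, 348, 2909 and 312 normalized counts in the *penk*-/- and 505, 265, 175 and 3201 in *penk*+/+ mice 1 to 4. In each group the library with the most *Pbsn* was far above the others, and these 2 libraries had 10.6 times the median of the remaining 6 (288 normalized counts). Between genotypes the log2 fold change was -0.27 ± 1.08 (SE; adjusted *p* = 0.961 by limma), and its interval ran from -2.70 to 2.15. Without the 2 libraries the means were 257 ± 128 in the *penk*-/- and 315 ± 171 in *penk*+/+ mice (SD, *n* = 3 each), with a log2 fold change of -0.32 (SE 0.50; adjusted *p* = 0.904 by limma).

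*Mme* followed *Pbsn* also among the other libraries. It was lowest in the 2 libraries without *Pbsn*, at 111 and 175 normalized counts, and among the libraries with a value above 0 the order of *Mme* was that of *Pbsn*. The libraries fell into separate sets on *Pbsn*, so no r over all 8 is read. Over the 6 libraries other than those with the most *Pbsn*, the normalized counts of *Mme* and *Pbsn* had a Pearson r of 0.972 and a Spearman rho of 0.986, given as a description. The 4 genes of the accessory gland list summed to between 172 and 213631 normalized counts in the *penk*-/- and between 94.0 and 221746 in *penk*+/+ mice, with *Pbsn* and *Msmb* at 0 in *penk*-/- mouse 1 and *penk*+/+ mouse 3.

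The genes whose log2 values were most like those of *Mme* over the 8 libraries were *Plekhs1*, *Col4a6*, *Gata2*, *Egf* and *Krt15*, with r from 0.995 to 0.997. *Egf* codes for epidermal growth factor, and *Krt15* for a keratin of basal epithelial cells. *Krt15* ranged from 32.3 to 297 normalized counts in the *penk*-/- and from 52.1 to 283 in *penk*+/+ mice. These r are descriptions over 8 points that share a few libraries with high values. *Ace*, another membrane peptidase that can cut enkephalins, was singled out after its values were seen. It had 5878 and 7196 normalized counts in the 2 libraries with the most *Pbsn*, and 2268 to 2963 in the other 6.

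**Figure D3:**
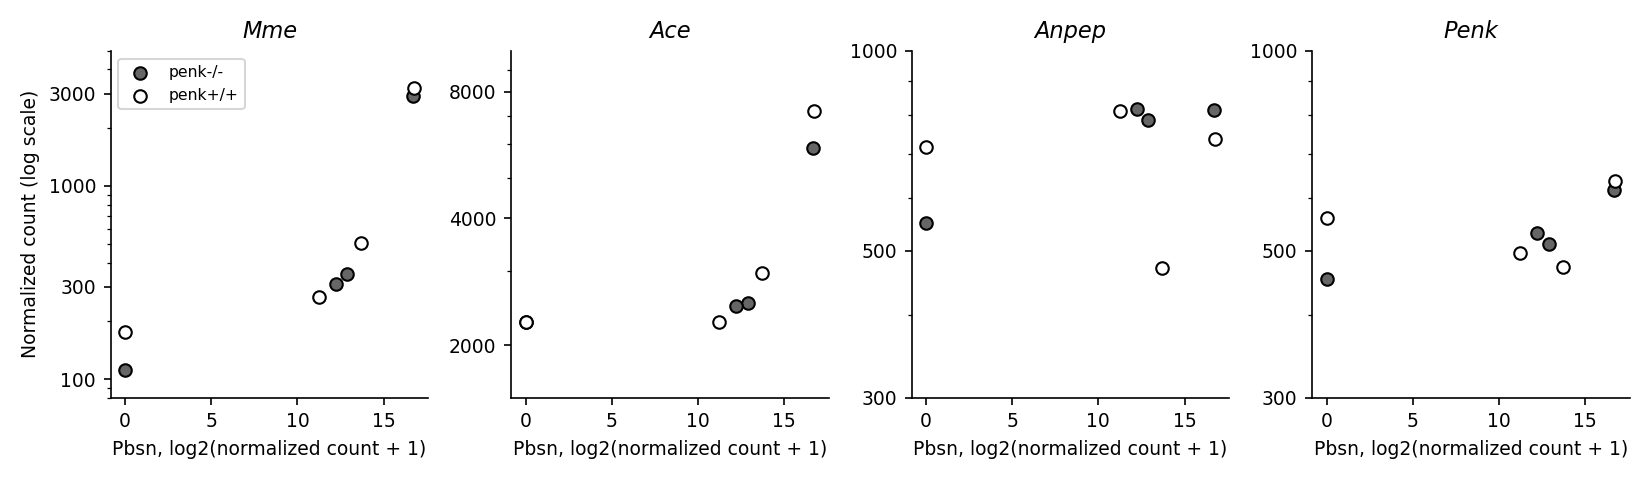
Normalized counts (log scale) of *Mme*, *Ace*, *Anpep* and *Penk* against log2(normalized count + 1) of *Pbsn*, with 1 circle per library (white, penk+/+; grey, penk-/-). *Mme* goes from 111 and 175 in the libraries without *Pbsn* to 2909 and 3201 in those with the most, whereas *Anpep* is lowest (470) in a library with 13425 *Pbsn* counts.

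*Anpep* (chromosome 7, 79471551 to 79510807) codes for aminopeptidase N, or CD13, which removes the first residue of enkephalins. It is carried by myeloid cells and fibroblasts, among other cells. It had 550, 788, 815 and 818 normalized counts in the *penk*-/- and 470, 811, 716 and 736 in *penk*+/+ mice 1 to 4. Mouse 1 was the lowest of each group, and the groups overlapped. Limma gave a log2 fold change of 0.13 with an interval from -0.29 to 0.55 (adjusted *p* = 0.870).

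*Anpep* was compared with the stromal and immune markers of the biopsies, and of these relations only the rho with the hematopoietic score passed adjustment. The lists summed to 25886 to 41283 (fibroblast, 5 genes) and 2842 to 4817 (hematopoietic, 5 genes) normalized counts in *penk*-/- mice, and to 21884 to 36609 and 2372 to 4675 in *penk*+/+ mice. Its Pearson r was 0.93 with the fibroblast score (exact permutation *p* = 0.00332; Spearman rho 0.79, exact permutation *p* = 0.0279; adjusted *p* of r 0.0906). Without the 2 libraries farthest from the median of the fibroblast score, r was 0.57. With the hematopoietic score (*Ptprc*, *Vav1*, *Coro1a*, *Lcp1* and *Rac2*), r was 0.90 (exact permutation *p* = 0.00067, adjusted 0.0563), and 0.81 without the 2 farthest libraries. The Spearman rho with the hematopoietic score was 0.95 (exact permutation *p* = 0.00114, adjusted 0.0479). Its r with the endothelium score was 0.90 (exact permutation *p* = 0.00243, adjusted 0.0906), with a Spearman rho of 0.69 (exact permutation *p* = 0.0694), and r was 0.77 without the 2 farthest libraries. The macrophage score gave 0.88 (exact permutation *p* = 0.0097, adjusted 0.163; Spearman rho 0.62, exact permutation *p* = 0.115) and the T cell score 0.53 (exact permutation *p* = 0.181; Spearman rho 0.50, exact permutation *p* = 0.216), which became 0.41 and 0.26 without the 2 farthest libraries. Its r with the epithelium score was -0.64, and -0.83 without the 2 farthest libraries. With the enteric glia, B cell and smooth muscle scores r was 0.74, 0.68 and 0.62. Leaving out instead the 2 libraries with the most *Pbsn* gave an r of 0.98 with the fibroblast and 0.96 with the hematopoietic score. The r with the endothelium, macrophage and T cell scores was then 0.93, 0.95 and 0.46, and that with the epithelium score -0.77. Those with the enteric glia, B cell and smooth muscle scores were 0.72, 0.84 and 0.66. In each group mouse 1 had the lowest *Anpep* and the lowest fibroblast, endothelium, hematopoietic and macrophage scores, but the highest epithelium score. These relations thus cannot be told apart over the 8 libraries. Of the 84 relations, 0 passed an adjusted *p* of 0.05 by r and 2 passed it by rho. They were those of *Anpep* with the hematopoietic score and of *Mme* with the accessory gland score, the latter over libraries in separate sets.

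The genes most like *Anpep* over the 8 libraries were *Scara3*, *Slc11a1*, *Ptafr*, *Mrc2* and *Aldh3a1*, with r from 0.978 to 0.996. *Slc11a1* is a metal transporter of phagocytes and *Mrc2* a collagen receptor of stromal cells. For *Penk*, the most alike genes were *Ifi211*, *Slc35c2*, *Kcng2*, *Eml2* and *Ninl*, with r from 0.966 to 0.977. These lists were taken from 19127 genes and 8 libraries.

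**Figure D4:**
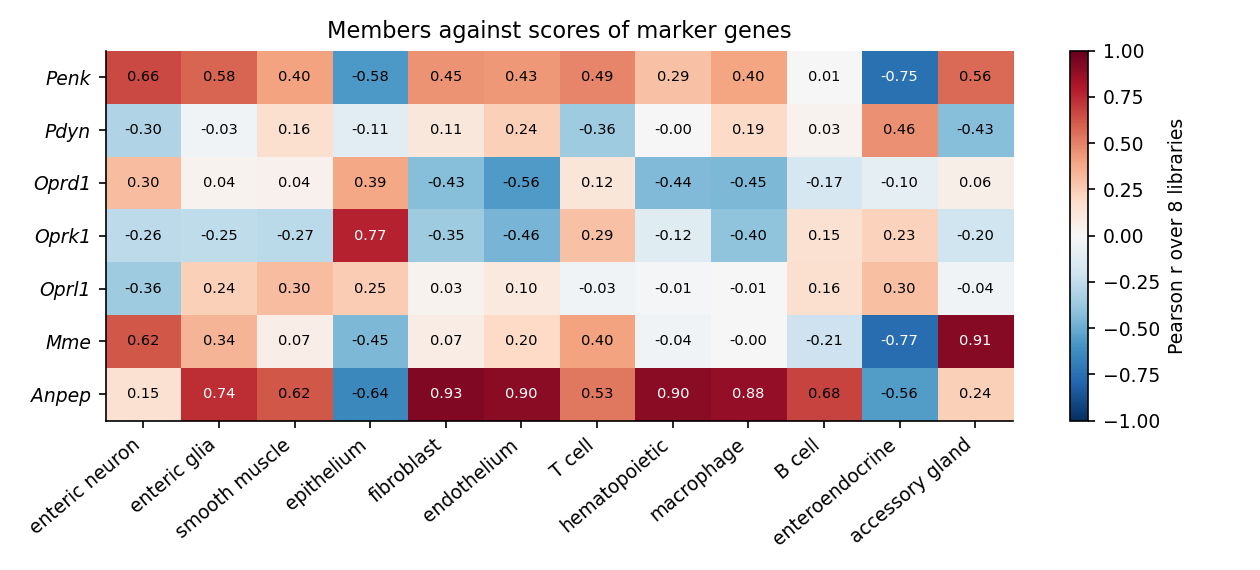
Pearson r over the 8 libraries between log2 values of the 7 members tested (rows) and the scores of 12 marker lists (columns). Red is positive and blue negative, and each cell gives r. *Anpep* is strongly positive with fibroblast (0.93), endothelium and hematopoietic (0.90 each) scores, the high cell of *Mme* and the accessory gland score rests on libraries that fall into separate sets, and *Penk* is most negative with the enteroendocrine score (-0.75).

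The machinery around the members was examined through 4 further lists. The 10 genes of precursor processing were all tested, and 0 passed at an adjusted *p* below 0.05. Of these, 8 were below and 2 above a log2 fold change of 0, beside 48.9% of all genes tested below 0, with a median of -0.11. The genes with the smallest *p* were *Pcsk2*, a convertase of neurons and endocrine cells (log2 fold change -0.22), *Pcsk1*, its endocrine partner (-0.14), and *Ctsl*, cathepsin L (-0.12), and the limma adjusted *p* of the list was at least 0.662. *Ctsl*, at 1575 normalized counts per kilobase, also had the highest level of the list.

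Of 14 other peptidases able to cut opioid peptides, 12 were tested, and *Ece2* and *Mmel1* were below the filter. The list had 0 genes at an adjusted *p* below 0.05, and a median of -0.05, with 9 genes below and 3 above 0. *Prep*, the gene of prolyl oligopeptidase, had the smallest *p*, and it was the 1 gene of the 12 whose groups did not overlap, beside 5.63% of all genes tested. It had 2360 ± 40.9 normalized counts in the *penk*-/- and 2188 ± 47.7 in *penk*+/+ mice (SD, *n* = 4 each), which is 0.11 ± 0.05 (SE) on the log2 scale (adjusted *p* = 0.518 by limma). *Rnpep* (aminopeptidase B) and *Erap1* (an aminopeptidase of the endoplasmic reticulum) both had a log2 fold change of -0.11. *Npepps*, the puromycin-sensitive aminopeptidase, had the highest level per length (835 per kilobase) and a log2 fold change of 0.10.

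Of 22 genes of receptor signalling, 20 were tested, and *Rgs20* and *Kcnj6* were below the filter. The list had 0 genes at an adjusted *p* below 0.05 and a median of 0.02, with 9 genes below and 11 above 0. An unadjusted *p* below 0.05 was found for 3 of the 20, beside 9.63% of all genes tested, and their adjusted *p* by limma was between 0.400 and 0.492. *Grk5*, a kinase that desensitizes G protein-coupled receptors, had 1063 ± 67.3 normalized counts in the *penk*-/- and 878 ± 93.2 in *penk*+/+ mice (SD, *n* = 4 each; log2 fold change 0.28). *Rgs19*, which shortens the signal of inhibitory G proteins, had a log2 fold change of 0.35. *Cacna1b*, the pore of the N-type calcium channel that opioid receptors inhibit in nerve endings, had a log2 fold change of -0.21. *Gnai3*, an inhibitory G protein subunit, had the highest level (2245 per kilobase), and its log2 fold change was 0.03. The groups of these 4 genes overlapped.

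Of 4 other receptors that bind opioid peptides, 3 were analysed and tested, with 0 at an adjusted *p* below 0.05 and a median of 0.19. Of the 3, 1 was below and 2 above a log2 fold change of 0. *Ackr3*, an atypical receptor that takes up opioid peptides, had a log2 fold change of 0.36 (interval from -0.13 to 0.84, adjusted *p* = 0.642 by limma). *Bdkrb2*, a bradykinin receptor, had 0.19. *Ogfr*, which binds Met-enkephalin, had the highest level of this list (488 per kilobase) and a log2 fold change of -0.04.

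**Figure D5:**
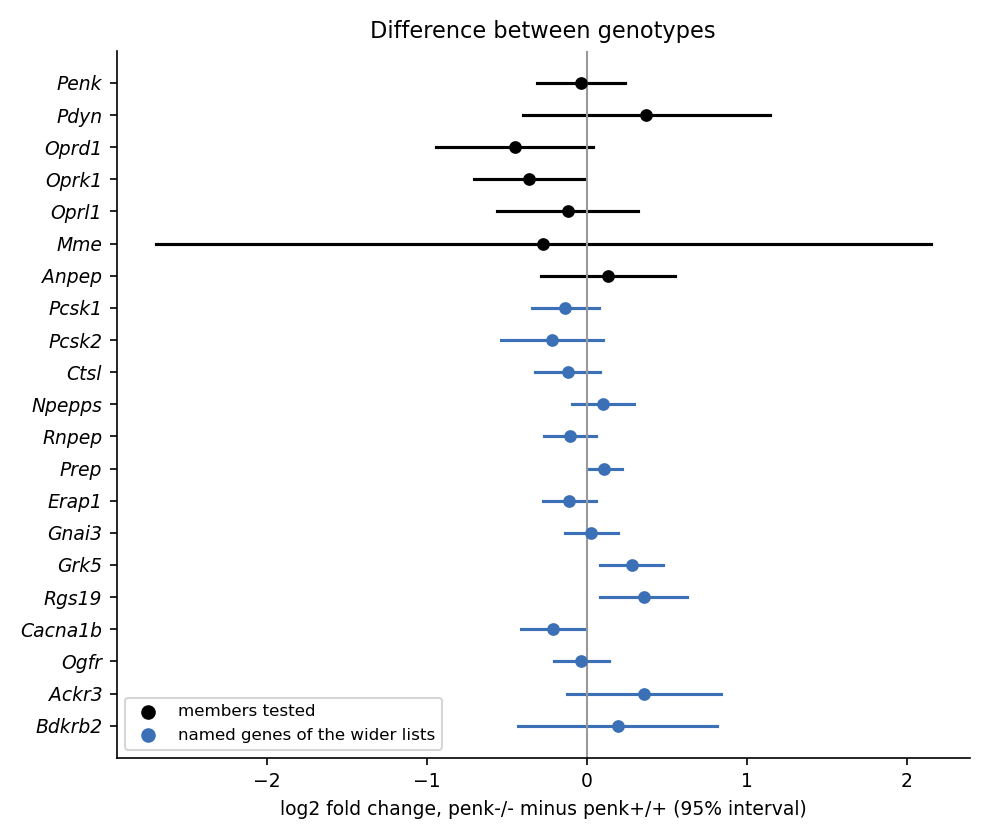
Log2 fold change between genotypes (penk-/- minus penk+/+) with its 95% interval by limma, for the 7 members tested (black) and the genes named from the further lists (blue). The interval of *Mme* is the widest (-2.70 to 2.15), and those of *Oprk1*, *Cacna1b*, *Prep*, *Grk5* and *Rgs19* exclude 0 before adjustment.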

How the data were processed

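Poly-A RNA of 8 colonic biopsies was sequenced as stranded, paired-end libraries. Per the submitters' processing notes, the tools were FastQC, STAR 2.7.8a and DESeq2 1.30.0, with the build GRCm39. The values deposited by the authors are a signal per gene and library, namely normalized counts (reads divided by a size factor). In each library 100% of the values above 0 were whole multiples of a step, within 0.01 of a read, and reads were recovered from them. The strand setting of the counting is not given in the sources used here. An antisense RNA (*A830012C17Rik*) overlaps 11.2% of the exonic bases of *Penk*.

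Genotypes were compared with limma 3.58.1 (R 4.3.3, trend, two-sided) on log2(value + 1) for the 19127 genes with a mean of at least 10, with Benjamini-Hochberg adjustment, and by exact permutation over the 70 assignments. Alternatives used edgeR 4.0.16 and DESeq2 1.42.0 on recovered reads. Gene names, positions and union exon lengths came from GENCODE M39, which matched 25776 of 26008 identifiers, and sequences from GRCm39. The tests were tried on simulated data first. The members and lists were chosen with earlier results of these data known. From each further list the genes named are the 3 with the smallest *p* and the one with the highest level per kilobase, and for *Penk*, *Mme* and *Anpep* the 5 most correlated genes. Nothing in the sources pairs the mice. Permutations were run with numpy 2.4.6 under Python 3.11.15, ranks were taken with scipy 1.17.1, and plots drawn with matplotlib 3.10.9.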

Additional observations from a re-analysis of the deposited data

Results flagged for a closer look

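For each of the 8 genes, the highest and the lowest library of each group of 4 were compared with the rest of the group. The measure was the distance of that library from its neighbour as a share of the whole spread of the group, judged by Dixon's 95% critical value for 4 samples. Of the 16 groups examined, 3 had a library beyond it, and chance alone gives about 1 in 20. *Mme* was highest in *penk*-/- mouse 3 (share 0.915), with 2909 normalized counts against 111 to 348 in the other *penk*-/- mice. *Mme* was also highest in *penk*+/+ mouse 4 (share 0.891), with 3201 against 175 to 505. These are the 2 libraries with the most *Pbsn*. *Anpep* was lowest in *penk*-/- mouse 1 (share 0.888), with 550 normalized counts against 788 to 818.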

How the results depend on the processing

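In none of 19 alternatives did a member that was given an adjusted *p* pass 0.05. *Pomc* was fitted only without the filter, *Pdyn*, *Oprd1* and *Oprl1* not at a mean of at least 50, and DESeq2 gave no adjusted *p* for *Pdyn* and *Mme*. The log2 fold change of *Oprk1* stayed between -0.45 and -0.29 (adjusted *p* 0.355 to 0.714), with an unadjusted *p* not below 0.05 in 13 of 19 alternatives (0.00726 to 0.147 over all). It lay below 0.05 in 1 of the 8 fits without a library. For *Oprd1* the log2 fold change stayed between -0.57 and -0.29 (adjusted *p* 0.421 to 0.809). Leaving out each library in turn gave -0.11 to 0.046 for *Penk*, 0.14 (without *penk*+/+ mouse 4) to 0.57 (without *penk*-/- mouse 4) for *Pdyn*, -0.26 to -0.045 for *Oprl1* (without *penk*-/- mice 2 and 3, respectively), -1.19 to 0.60 for *Mme* and -0.039 to 0.27 for *Anpep*. The sign turned for *Penk* without *penk*-/- mouse 1 (0.04) or *penk*+/+ mouse 4 (0.046), for *Mme* without the same mice (0.38 and 0.60), and for *Anpep* without *penk*+/+ mouse 1 (-0.039). The count of genes at an adjusted *p* below 0.05 was 0 as reported, 1 with quantile normalization, 1 with the replicate number as a block, 205 with DESeq2, and 0 to 6 with a library left out, the 6 being without *penk*-/- mouse 1. The cause was not tested. The replicate block also moved the genes at an unadjusted *p* below 0.05 from 1842 to 2938. The correlations of the deviations of same-numbered mice were 0.15, -0.04, -0.32 and -0.16. These values cannot tell whether mice with the same number shared a cage or a batch, which was not tested. Leaving out the 2 libraries with the most *Pbsn*, and *Pbsn* as a covariate, were chosen after seeing the data. With few reads, *Pomc*, *Pdyn* and the receptors are limited by counting error.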
